A study of Mus musculus with 4 samples.

Results

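The Bcl2 family genes described here are 10 of the 52636 gene identifiers in the count tables of sorted mouse kidney cells, chosen by symbol: Bcl2, Bcl2l1, Mcl1, Bax, Bak1, Bbc3, Pmaip1, Bcl2l11, Bid and Bad. The rule uses symbols and no measured value, although it was set with earlier results of these data known, and all 10 were among the 18172 genes that passed the filter on low counts. The study sequenced RNA from 2 libraries labelled Brg1-cKO, a name that usually stands for conditional deletion of Brg1, and from 2 control libraries. All were made from kidney cells isolated by fluorescence-activated sorting, with 3000 cells per sample. Smarca4 encodes Brg1, the motor subunit of SWI/SNF chromatin remodelers, which slide and evict nucleosomes. The strain, the age of the kidneys, the sorting marker, the deleting allele and the cell type that drives it are not stated for either group. The labels do not say whether a group's libraries came from different animals, so p-values here reflect the spread among these libraries alone, which may be technical.

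Proteins of the Bcl2 family set whether a cell crosses the point of no return in the mitochondrial pathway of apoptosis. Bcl2, Bcl-xL (from Bcl2l1) and Mcl1 hold the outer mitochondrial membrane closed, Bax and Bak1 form pores in it, and the BH3-only proteins Bim (from Bcl2l11), Puma (from Bbc3), Noxa (from Pmaip1), Bid and Bad bind the survival proteins or switch on the pore formers. In the mouse, loss of Bcl2 gives small kidneys that become cystic, and removal of Bim is known to relieve this. Many of these proteins are controlled after transcription, by phosphorylation, cleavage or rapid turnover, which RNA counts do not show.

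None of the 10 genes passed the test of a difference between Brg1-cKO and control cells. With edgeR's quasi-likelihood fit, 0 of the 10 and 0 of 18172 genes (0%) had an adjusted p under 0.05. At an unadjusted p under 0.05 the count was again 0 of the 10, against 5.44% of all tested genes that were higher and 12.9% that were lower in Brg1-cKO. DESeq2 and edgeR's likelihood ratio test called 0 of the 10, where they called 11.1% and 13.6% of all genes with an adjusted p, and limma-voom called 0 of the 10 against 1.8% of all genes. A variance per group in limma-voom (0.737% of all genes), a replicate block (0.858%), or leaving out control replicate 1 (0.0818%) or 2 (0.0817%) also called 0 of the 10. With a lone Brg1-cKO library, assumed to vary like the controls, edgeR called 7 of the 10 without replicate 1, against 55.5% of all genes, and 8 of the 10 without replicate 2, against 60.6%. By position alone, Bax and Bbc3 were higher and Bcl2 and Bcl2l1 lower in each Brg1-cKO library than in either control, and the other 6 overlapped. Of all tested genes 17.5% were higher and 34.5% lower in this way, and among those with at least 5 CPM (counts per 1000000 gene counts, with TMM scaling) on average, 22.7% and 25.8%. A share of 2 in 10 in each direction is near this background and is no result about the family. With 2 against 2 libraries the smallest exact two-sided permutation p is 0.333, which these 4 genes had.

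The 4 genes whose groups did not overlap are shown by the 250 bases before their RefSeq start site, on GRCm38.p6, read 5′ to 3′ on the strand of the gene. The table held such windows for 9 of the 10 genes, and for genes with several starts the one furthest upstream is given. None of the 4 windows overlaps an annotated exon in GENCODE M21. Capitals mark GC boxes (GGGCGG or its reverse complement CCGCCC, overlapping matches counted) and, in Bax, the p53 decamer, a match to the consensus unit of the element that the tumour suppressor p53 binds.
Bcl2: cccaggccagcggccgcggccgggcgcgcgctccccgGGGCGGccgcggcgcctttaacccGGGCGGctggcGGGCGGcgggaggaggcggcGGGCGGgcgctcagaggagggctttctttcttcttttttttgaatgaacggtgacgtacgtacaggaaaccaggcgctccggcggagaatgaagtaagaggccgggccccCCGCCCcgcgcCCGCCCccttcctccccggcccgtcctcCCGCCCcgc
Bcl2l1: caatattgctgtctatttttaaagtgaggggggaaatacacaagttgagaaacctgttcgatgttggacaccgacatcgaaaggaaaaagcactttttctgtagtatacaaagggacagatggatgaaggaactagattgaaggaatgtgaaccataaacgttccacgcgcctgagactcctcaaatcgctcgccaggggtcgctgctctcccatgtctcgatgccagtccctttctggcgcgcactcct
Bax: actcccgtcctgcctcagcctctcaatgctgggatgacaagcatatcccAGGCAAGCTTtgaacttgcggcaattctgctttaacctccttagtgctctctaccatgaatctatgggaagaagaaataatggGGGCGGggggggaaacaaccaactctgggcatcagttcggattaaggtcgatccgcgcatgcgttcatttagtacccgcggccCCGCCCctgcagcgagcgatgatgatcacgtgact
Bbc3: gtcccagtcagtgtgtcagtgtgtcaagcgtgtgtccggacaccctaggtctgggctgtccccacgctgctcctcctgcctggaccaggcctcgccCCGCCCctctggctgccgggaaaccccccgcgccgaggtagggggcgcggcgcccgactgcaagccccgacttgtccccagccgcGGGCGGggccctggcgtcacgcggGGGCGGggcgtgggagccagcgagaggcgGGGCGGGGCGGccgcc

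The Bcl2 window (chr1:106714291-106714540, minus strand) held 7 GC boxes and a GC content of 74.8%, and the Bbc3 window (chr7:16309333-16309582, plus strand) held 5 and 76.4%. The Bcl2l1 window (chr2:152831729-152831978, minus strand) held 0, with a GC content of 47.6%. The Bax window (chr7:45466899-45467148, minus strand) held 2 GC boxes and 1 p53 decamer, which starts 201 bases before the start site, with a GC content of 54.0%. Of 32851 such windows in the table, 32.7% held a GC box and 7.13% a p53 decamer, and their GC content was 53.2%. The 2 genes that were lower thus have unlike windows, as have the 2 that were higher. A match is a description of letters and not a site, and both motifs were searched on both strands.

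Facts of the libraries stand beside every value that follows. Counts on genes were 14645665 and 10922272 in the Brg1-cKO libraries and 35411905 and 37999342 in the controls. Uniquely aligned reads outside counted genes made up 53.4% ± 5.47 in Brg1-cKO and 15.9% ± 0.775 in control (SD, n = 2 each). The targeted gene Smarca4 had 760 and 691 CPM in Brg1-cKO cells and 898 and 937 CPM in control cells (log2 fold change -0.34, SE 0.09, adjusted p = 0.167 in edgeR), which checks the labels only in part. Xist had 836 and 1205 CPM in Brg1-cKO cells and 244 and 217 CPM in control cells, and the Y-linked Ddx3y had 1.05 and 3.27 CPM in Brg1-cKO cells and 76.0 and 78.8 CPM in control cells, so the sex of the cells and the genotype cannot be told apart. Brg1-cKO libraries had a biological coefficient of variation of 1.15, and controls of 0.174.

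Summed levels of cell type markers also differed between the groups. The summed level of 12 podocyte markers was 2942 to 3117 CPM in Brg1-cKO cells and 825 to 831 CPM in control cells, and that of 12 early nephron markers was 2503 to 2712 CPM in Brg1-cKO cells and 1558 to 1571 CPM in control cells. For 12 nephron progenitor markers the sums were 2656 to 2725 CPM in Brg1-cKO cells and 2236 to 2250 CPM in control cells. Without overlap of the groups, 5 of these markers were higher in Brg1-cKO and 2 lower. Wt1, among the higher, was at 663 and 620 CPM in Brg1-cKO cells and 365 and 374 CPM in control cells. Six2, lower, was at 234 and 126 CPM in Brg1-cKO cells and 242 and 237 CPM in control cells. Meox1, also lower, was at 28.9 and 6.17 CPM in Brg1-cKO cells and 38.7 and 33.3 CPM in control cells. The progenitor sum thus does not stand for each of its markers, and neither does the early nephron sum. Of the early nephron markers 9 were higher in Brg1-cKO without overlap and 2, Fgf8 and Dll1, lower. Fgf8 was at 7.55 and 15.1 CPM in Brg1-cKO cells and 24.7 and 24.3 CPM in control cells. Sums were lower in Brg1-cKO for the other types. For 12 ureteric bud markers they were 92.9 to 112 CPM in Brg1-cKO cells and 300.0 to 303 CPM in control cells, and for 12 stromal markers 2269 to 2446 CPM in Brg1-cKO cells and 3841 to 3900 CPM in control cells. For 10 endothelial markers they were 257 to 394 CPM in Brg1-cKO cells and 722 to 733 CPM in control cells, and for 10 immune markers 49.7 to 59.5 CPM in Brg1-cKO cells and 139 to 143 CPM in control cells. Of the stromal markers 11 were lower in Brg1-cKO without overlap and 1, Col1a2, higher. Col1a2 was at 748 and 710 CPM in Brg1-cKO cells and 591 and 585 CPM in control cells. In both Brg1-cKO libraries the ureteric bud markers Wnt9b, Wnt7b, Calb1 and Upk3a and the immune marker C1qa were at 0 counts, Upk3a also in the controls. In bulk samples, fewer cells of a type and less RNA per cell cannot be told apart. The part of these shifts in any Bcl2 family value was not tested.

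Of the survival genes, Bcl2 lies on chromosome 1 from 106538178 to 106714274 on the minus strand (mm10, GENCODE M21, as for all positions here) and encodes the founding member of the family. Bcl2 was at 68.1 and 81.7 CPM in Brg1-cKO cells and at 93.5 and 95.6 CPM in control cells. Both Brg1-cKO libraries were below both controls, and the exact 95% Poisson interval of the nearer one, 76.4 to 87.3 CPM, did not reach that of control replicate 1, 90.3 to 96.7 CPM. Its fitted log2 fold change, -0.34 (SE 0.20, 95% interval -0.89 to 0.22), had an edgeR adjusted p of 0.512. Exons of Bcl2 share 558 bases with the antisense gene D630008O14Rik, which had 0 and 0 counts in Brg1-cKO cells and 0 and 7 in control cells.

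Bcl2l1, on chromosome 2 from 152780668 to 152831728, encodes Bcl-xL, the survival protein of many epithelia. It was at 54.1 and 55.8 CPM in Brg1-cKO cells and at 71.8 and 65.3 CPM in control cells. It was the only member whose Brg1-cKO libraries lay closer to each other, at a ratio of 1.03, than its controls, at 1.10. The counting interval of the nearer Brg1-cKO library (51.4 to 60.4 CPM) lay below that of control replicate 2 (62.8 to 67.9 CPM). The log2 fold change was -0.32 (SE 0.22, 95% interval -0.92 to 0.28, edgeR adjusted p = 0.563). For Bcl2 and Bcl2l1 the intervals thus hold a fall, no change and a smaller rise, and the test does not separate these.

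Mcl1, on chromosome 3 from 95658788 to 95663176, encodes a survival protein of short half-life and was the member with the highest level per length in every library. It was at 462 and 278 CPM in Brg1-cKO cells and at 393 and 406 CPM in control cells, so that one Brg1-cKO library was above both controls and the other below both. Its log2 fold change was -0.11 (SE 0.28, 95% interval -0.88 to 0.66, edgeR adjusted p = 0.895). Without Brg1-cKO replicate 2 it was 0.19 (adjusted p = 0.00684) and without replicate 1 -0.55 (adjusted p = 2.53e-06), calls in opposite directions from edgeR fits in which the lone library is assumed to vary like the controls.

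**Figure D1:**
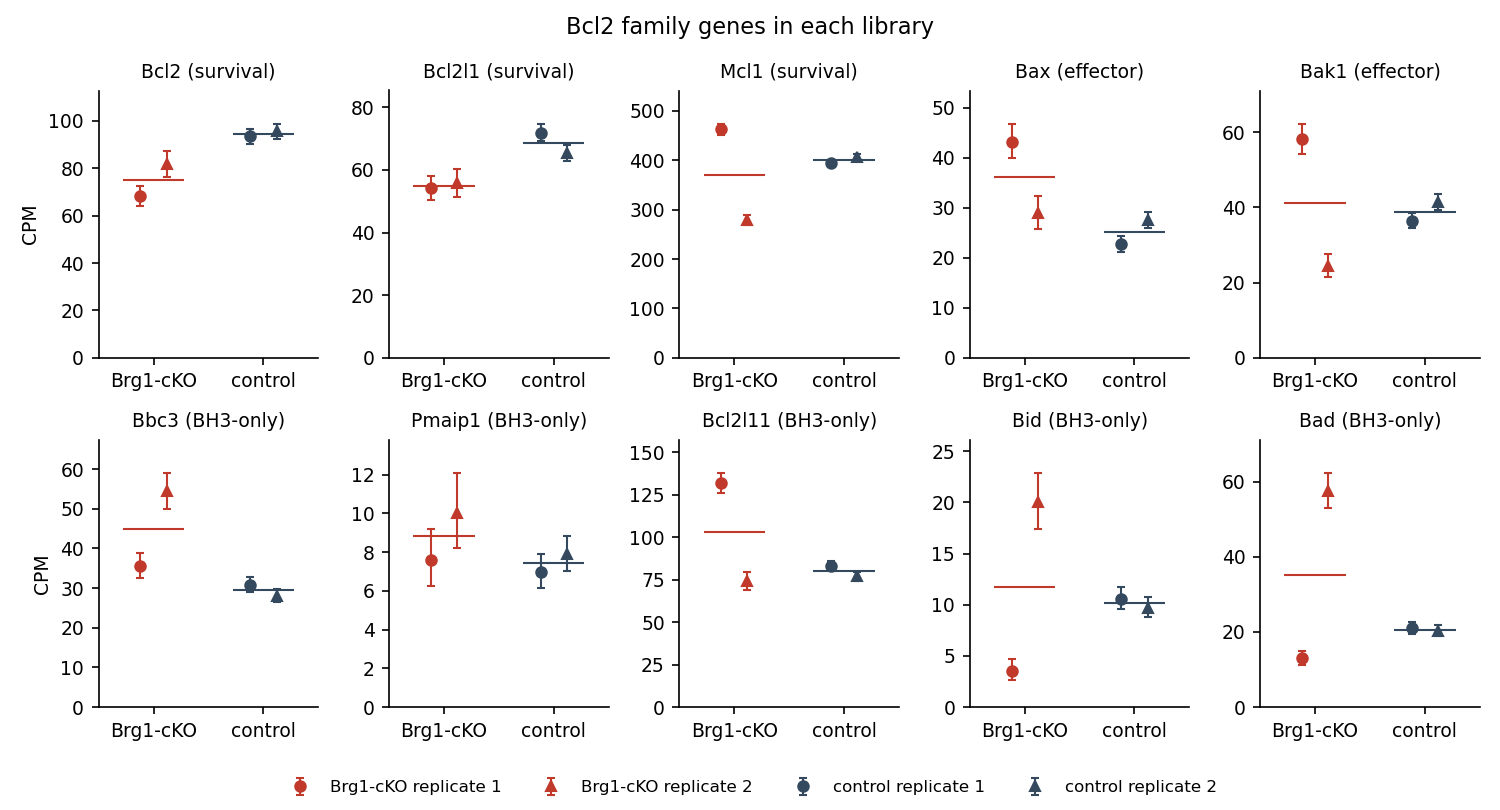
CPM of the 10 genes in each library, Brg1-cKO left of control in each panel, with exact 95% Poisson intervals for counting error only and a line at the group mean. Bcl2 and Bcl2l1 sit below both controls in both Brg1-cKO libraries, Bax and Bbc3 above, and Mcl1, Bak1, Bcl2l11, Bid and Bad have a Brg1-cKO library on each side of the controls.

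Of the pore formers, Bax lies on chromosome 7 from 45461697 to 45466898 and was at 43.3 and 29.0 CPM in Brg1-cKO cells and at 22.7 and 27.5 CPM in control cells. Both Brg1-cKO libraries were above both controls. The gap between Brg1-cKO replicate 2 (25.8 to 32.4 CPM) and control replicate 2 (25.9 to 29.2 CPM) was within counting error, so for Bax the order of the libraries rests on replicate 1. The fit gave Bax a log2 fold change of 0.52 (SE 0.38, 95% interval -0.53 to 1.58, edgeR adjusted p = 0.593). It was 0.76 without Brg1-cKO replicate 2 (adjusted p = 8.19e-04) and 0.18 without replicate 1 (adjusted p = 0.413). Gm45808 shares 192 bases of Bax exons on the same strand and had 0 counts in each library.

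Bak1, on chromosome 17 from 27019810 to 27029009, encodes the other pore former. It was at 58.1 and 24.5 CPM in Brg1-cKO cells and at 36.4 and 41.4 CPM in control cells. The libraries of Brg1-cKO lay on either side of the controls and differed by a ratio of 2.37, against 1.14 between the controls. The fitted log2 fold change was 0.09 (SE 0.51, 95% interval -1.35 to 1.53, edgeR adjusted p = 0.958). It was 0.56 without Brg1-cKO replicate 2, -0.70 without replicate 1 and -0.038 without control replicate 1. Bak1 shares 437 exon bases (18.2% of its exons) with the antisense gene Ggnbp1, which had 18 and 3 counts in Brg1-cKO and 141 and 145 in control.

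Of the BH3-only genes, Bbc3 lies on chromosome 7 from 16308393 to 16318205 and encodes Puma, a p53 target that binds all the survival proteins named here. It had the smallest unadjusted p of the 10 genes, 0.160 in edgeR's quasi-likelihood test. Bbc3 was at 35.5 and 54.4 CPM in Brg1-cKO cells and at 30.8 and 28.1 CPM in control cells. Both Brg1-cKO libraries were above both controls, although the counting interval of the nearer one (32.5 to 38.7 CPM) touched that of control replicate 1 (29.0 to 32.7 CPM). The log2 fold change was 0.61 (SE 0.35, 95% interval -0.37 to 1.59, edgeR adjusted p = 0.494). It was 0.86 without Brg1-cKO replicate 1 (adjusted p = 1.41e-04) and 0.25 without replicate 2 (adjusted p = 0.172).

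Bcl2l11, on chromosome 2 from 128126038 to 128162547, encodes Bim, a potent activator of the pore formers. It was at 132 and 74.0 CPM in Brg1-cKO cells and at 82.8 and 76.9 CPM in control cells, so only Brg1-cKO replicate 1 was above the controls. Its log2 fold change was 0.36 (SE 0.34, edgeR adjusted p = 0.683), or 0.70 without Brg1-cKO replicate 2 and -0.14 without replicate 1. Pmaip1, on chromosome 18 from 66458533 to 66465565, encodes Noxa, which binds Mcl1. It was the member with the lowest CPM in control cells, at 7.62 and 9.996 CPM in Brg1-cKO cells and at 6.99 and 7.88 CPM in control cells. The groups overlapped, and within each group the counting intervals of its libraries overlapped too. Its log2 fold change was 0.24 (SE 0.81, edgeR adjusted p = 0.923), or 0.40 without Brg1-cKO replicate 1, 0.014 without Brg1-cKO replicate 2 and 0.12 without control replicate 1.

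Bid and Bad showed the widest gaps between the Brg1-cKO libraries. Bid, on chromosome 6 from 120891930 to 120916853, encodes the protein that caspase-8 cleaves to link death receptors to mitochondria. It was at 3.56 and 19.99 CPM in Brg1-cKO cells, from 51 and 214 counts, and at 10.6 and 9.72 CPM in control cells. Bad, on chromosome 19 from 6941861 to 6951899, encodes a protein that survival kinases phosphorylate and so hold inactive. It was at 12.9 and 57.5 CPM in Brg1-cKO cells and at 20.96 and 20.3 CPM in control cells. In both genes replicate 1 was below and replicate 2 above the controls, at ratios between the Brg1-cKO libraries of 5.61 for Bid and 4.45 for Bad and between the controls of 1.09 and 1.03.

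The log2 fold change of Bid was 0.21 (SE 1.06, 95% interval -2.75 to 3.18, edgeR adjusted p = 0.948) and that of Bad 0.77 (SE 0.81, 95% interval -1.50 to 3.04, edgeR adjusted p = 0.718). Without Brg1-cKO replicate 1 they were 0.95 for Bid and 1.45 for Bad, and without replicate 2 they were -1.53 for Bid and -0.69 for Bad. The intervals are wide enough to hold a several-fold change in either direction. Bid shares 628 exon bases (17.7%) with Bcl2l13 and Bad shares 524 (20.5%) with Gpr137, each antisense. Bcl2l13 had 1456 and 832 counts in Brg1-cKO and 4018 and 4045 in control, more than Bid in each library. Gpr137 had 125 and 86 counts in Brg1-cKO and 515 and 680 in control. Whether counting used strand is not stated, so reads of such shared exons may not be told apart, or may be left out as ambiguous.

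**Figure D2:**
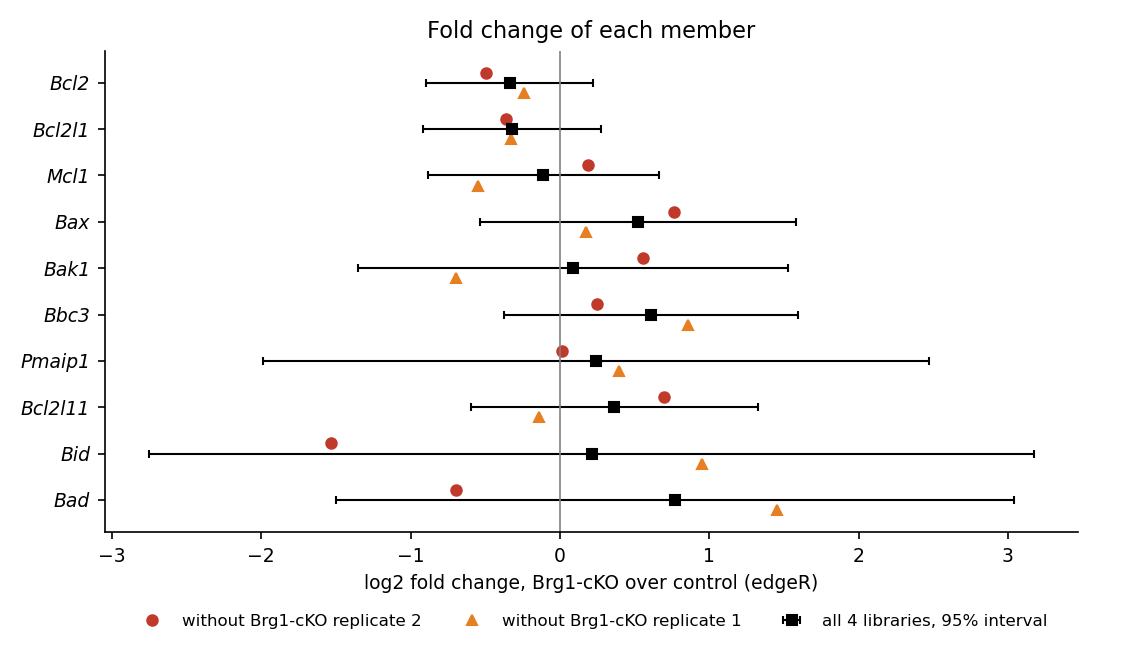
Log2 fold change of each gene, Brg1-cKO over control, from edgeR: squares with 95% intervals use all 4 libraries, circles leave out Brg1-cKO replicate 2 and triangles leave out replicate 1. All 10 intervals include 0, and for Mcl1, Bak1, Bcl2l11, Bid and Bad the values from a lone Brg1-cKO library lie on opposite sides of 0.

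Within a group, 8 of the 10 genes differed between the Brg1-cKO libraries by more than their counting intervals, and 4 of 10 between the controls. The median ratio of the higher to the lower library was 1.60 in Brg1-cKO and 1.09 in control. Over the 10274 tested genes of the same range of mean CPM (8.12 to 385) with a count in each library, these medians were 1.64 and 1.07, and 90.8% had the larger ratio in Brg1-cKO, against 90.0% of the 10. The spread of the family between the Brg1-cKO libraries was thus like that of other genes at its level. Mcl1, Bax, Bak1 and Bcl2l11 were higher in Brg1-cKO replicate 1, and Bcl2, Bcl2l1, Bbc3, Pmaip1, Bid and Bad in replicate 2. Taken as a list, 7 of the 10 had a log2 fold change above 0 and 3 below, with a median of 0.23, beside 8546 above and 9626 below and a median of -0.06 over all tested genes. The split and the median of the 10 depended on the libraries and the model used. Without Brg1-cKO replicate 1 the split was 5 above and 5 below with a median of 0.019, beside -0.40 over all tested genes. Without replicate 2 it was 6 above and 4 below with 0.10, beside -0.58. With the replicate block it was 5 and 5 with 0.097, beside -0.31.

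Levels of different genes were compared as CPM per kilobase of merged exons. Mcl1 stood at 108 ± 38.0 in Brg1-cKO and 117 ± 2.61 in control (SD, n = 2 each), far above the other 9 in every library. In control the next were Bak1 at 16.2 ± 1.45, Bax at 15.9 ± 2.16, Bcl2l1 at 14.95 ± 1.003 and Bbc3 at 13.9 ± 0.904 CPM per kilobase, neighbours that did not differ beyond their spread. Bcl2 at 10.3 ± 0.160 and Bcl2l11 at 9.95 ± 0.515 followed, then Bad at 8.07 ± 0.182, and Bid at 2.86 ± 0.173 and Pmaip1 at 2.72 ± 0.232 were lowest. In Brg1-cKO the order after Mcl1 was Bax (22.9 ± 6.42), Bbc3 (21.2 ± 6.28), Bak1 (17.1 ± 9.87), Bad (13.8 ± 12.3), Bcl2l11 (12.8 ± 5.07), Bcl2l1 (12.0 ± 0.259), Bcl2 (8.18 ± 1.05), Bid (3.32 ± 3.27) and Pmaip1 (3.22 ± 0.616). Neighbours in that order did not differ beyond their SDs, except Bax from Mcl1, Bcl2 from Bcl2l1 and Bid from Bcl2. Bcl2l1 ranked 6 and 5 of 10 in the Brg1-cKO libraries and 2 and 4 in the controls, and Bbc3 ranked 4 and 2 in Brg1-cKO and 4 and 5 in control.

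Summed by role, the survival genes stood at 154 and 103 CPM per kilobase in Brg1-cKO and at 141 and 143 in control. The pore formers summed to 51.6 and 28.5 in Brg1-cKO and to 29.5 and 34.7 in control. The BH3-only genes summed to 41.9 and 66.6 in Brg1-cKO and to 38.5 and 36.4 in control. Only the BH3-only sum had both Brg1-cKO libraries above both controls, and it rested in part on different genes in each. Bcl2l11 was high in replicate 1, and Bad and Bid were high in replicate 2. Bbc3 was above both controls in each Brg1-cKO library, at 16.7 and 25.6 CPM per kilobase in Brg1-cKO and 14.5 and 13.2 in control. As a share of the summed level of all 10, the survival genes made up 62.3% and 51.9% in Brg1-cKO and 67.4% and 66.9% in control. These sums are descriptions and carry no test, since the genes were chosen with results of these data known.

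**Figure D3:**
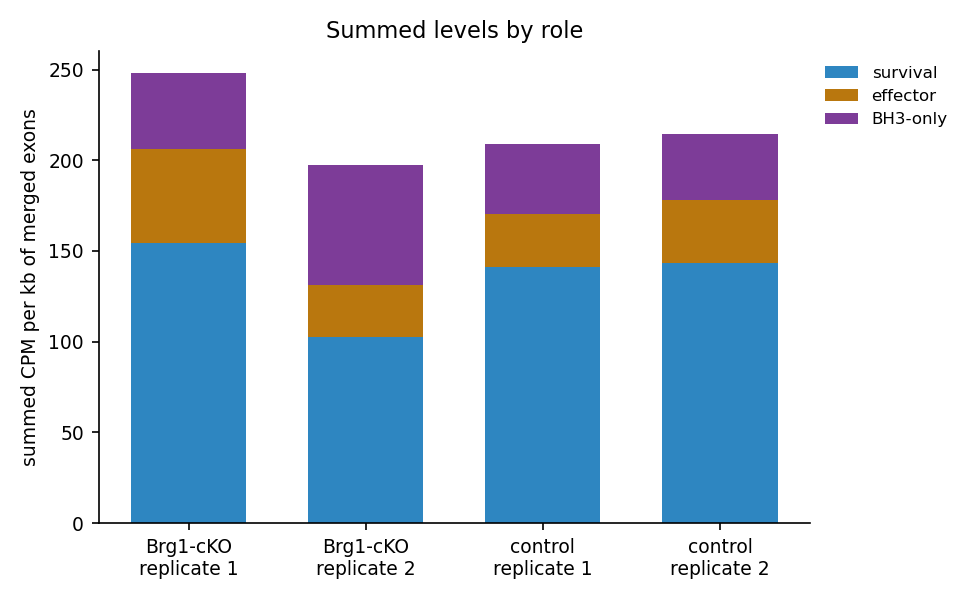
Summed CPM per kilobase of merged exons in each library, stacked by role (effector stands for the pore formers), Brg1-cKO libraries left of the controls. The survival genes, mostly Mcl1, make up 62.3% and 51.9% of the total in Brg1-cKO and 67.4% and 66.9% in control.

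Ratios within a library do not depend on how libraries are scaled. The ratio of Bax to Bcl2, per kilobase, was 3.69 and 2.06 in Brg1-cKO and 1.41 and 1.67 in control. Bbc3 to Bcl2l1 was 1.42 and 2.10 in Brg1-cKO and 0.926 and 0.928 in control, and Bcl2l11 to Mcl1 was 0.121 and 0.113 in Brg1-cKO and 0.0896 and 0.0807 in control. For Bax to Bcl2 and Bbc3 to Bcl2l1 the separation of the groups is fixed by the positions of the single genes given above and adds nothing to them. Bcl2l11 to Mcl1 was higher in both Brg1-cKO libraries, although each of these genes overlapped. No share over other pairs of genes was computed, so these ratios are descriptions. Bcl2l11 and Mcl1 each had a wide gap between the Brg1-cKO libraries, in the same direction, so that their ratio was steadier than either level. The ratios of Bak1 to Bcl2, of Pmaip1 to Mcl1 and of Bad to Bcl2l1 overlapped between the groups. The first was 3.24 and 1.14 in Brg1-cKO and 1.48 and 1.65 in control, and the last 0.429 and 1.85 in Brg1-cKO and 0.523 and 0.557 in control.

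**Figure D4:**
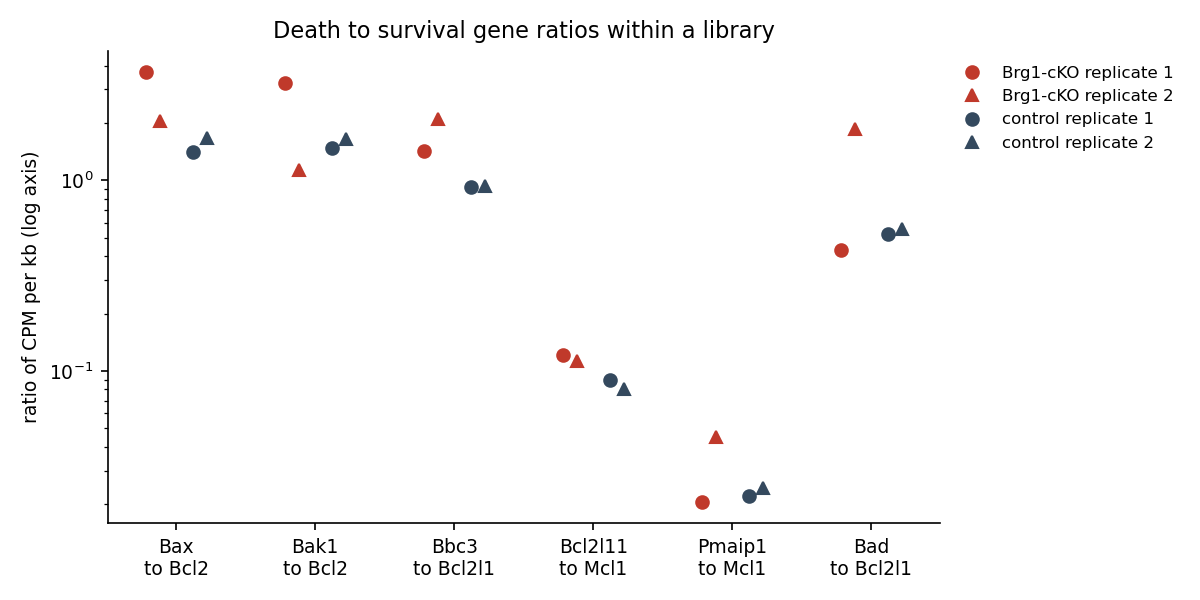
Ratios of CPM per kilobase of a death gene to a survival gene within each library, on a log axis, Brg1-cKO left of control in each pair of groups. Bax to Bcl2, Bbc3 to Bcl2l1 and Bcl2l11 to Mcl1 lie above both controls in each Brg1-cKO library, in the first and second as the single genes fix it, and the other 3 overlap.

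The 3 genes of at least 10 CPM whose profile over the 4 libraries was nearest to that of Bbc3, out of 10273, were Lrrc28, Tnfrsf21 and Fam234a, at Euclidean distances of 0.0302, 0.0548 and 0.0619 in mean-centred log2(CPM + 0.5). Tnfrsf21, which encodes death receptor 6, was at 65.3 and 95.8 CPM in Brg1-cKO cells and at 57.0 and 50.4 CPM in control cells. With 4 libraries, such likeness describes these libraries only.

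Other genes of the family and of the apoptosis machinery were read from lists of known members, and none of them passed the adjusted threshold (0 calls in edgeR among all genes). Of 13 other Bcl2 family genes 8 were tested, of which 5 had a log2 fold change above 0 and 3 below, with a median of 0.75. Of the 5 above 0, Bok, Bik, Bcl2l12 and Bcl2l14 were above the controls in only 1 Brg1-cKO library and overlapped them, so this median rests on single libraries. By position 1 of the 8 was higher and 2 were lower in both Brg1-cKO libraries, near the background. Bmf, a BH3-only gene, was at 72.5 and 68.8 CPM in Brg1-cKO cells and at 41.6 and 51.1 CPM in control cells (log2 fold change 0.61, SE 0.24, edgeR adjusted p = 0.316). Bcl2l13 was at 102 and 77.7 CPM in Brg1-cKO cells and at 112 and 105 CPM in control cells (log2 fold change -0.27, SE 0.22). The groups of both genes did not overlap.

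Of 18 genes of the apoptosome, caspases and mitochondrial factors, 8 were above 0 and 10 below, with a median of -0.06. Cycs, which encodes the cytochrome c that leaves mitochondria once pores form, was at 74.7 and 83.3 CPM in Brg1-cKO cells and at 29.4 and 30.7 CPM in control cells. Its log2 fold change of 1.40 (SE 0.24) did not pass, at an edgeR adjusted p of 0.166. Casp2 was at 58.6 and 51.2 CPM in Brg1-cKO cells and at 96.2 and 84.1 CPM in control cells (log2 fold change -0.71, SE 0.22, edgeR adjusted p = 0.208). Endog, a mitochondrial nuclease, had 0 counts in Brg1-cKO cells and 3.83 and 2.46 CPM in control cells. With the Brg1-cKO group set to 3 counts in all, this is 26.0-fold lower, a floor that covers counting error only. In both Brg1-cKO libraries 1527 of the 18172 tested genes were at 0 counts. Of 11594 tested genes at 10 CPM or more in at least 1 Brg1-cKO library, 610 were at 0 counts in the other. A count of 0 there thus sets no firm bound on the level.

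Of the inhibitor of apoptosis list 4 of 6 tested genes were below 0, with a median of -0.29. Those 4 lay below both controls in each Brg1-cKO library. Xiap was at 90.8 and 81.6 CPM in Brg1-cKO cells and at 108 and 104 CPM in control cells, and Birc6 at 277 and 196 CPM in Brg1-cKO cells and at 285 and 287 CPM in control cells. Birc3 was at 1.40 and 1.12 CPM in Brg1-cKO cells and at 8.89 and 4.98 CPM in control cells (log2 fold change -2.46, SE 1.16, edgeR adjusted p = 0.394). Naip2 was at 0 counts in Brg1-cKO and at 1.87 and 2.41 CPM in control cells, 17.9-fold lower with the same 3 counts and the same limit as for Endog. Of all tested genes 34.5% were lower in this way.

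Of the death receptor list 5 of 11 tested genes were above 0 and 6 below, with a median of -0.32. Cflar, which encodes an inhibitor of caspase-8, was at 20.4 and 30.5 CPM in Brg1-cKO cells and at 37.8 and 38.9 CPM in control cells (log2 fold change -0.59, SE 0.36, edgeR adjusted p = 0.520). Traf2, a signalling adaptor, was at 70.2 and 30.5 CPM in Brg1-cKO cells and at 28.6 and 27.5 CPM in control cells. Tradd, another adaptor, was at 1.82 and 1.87 CPM in Brg1-cKO cells and at 4.92 and 5.42 CPM in control cells.

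Of 20 genes of the p53 pathway 11 were above 0 and 9 below, with a median of 0.09. Trp53 itself was at 239 and 162 CPM in Brg1-cKO cells and at 165 and 174 CPM in control cells. Plk2, a kinase and p53 target, was at 47.3 and 57.9 CPM in Brg1-cKO cells and at 136 and 133 CPM in control cells (log2 fold change -1.35, SE 0.21, edgeR adjusted p = 0.166). Ei24, a p53-induced gene, was at 114 and 127 CPM in Brg1-cKO cells and at 76.0 and 73.1 CPM in control cells (log2 fold change 0.70, SE 0.18, edgeR adjusted p = 0.166). Mdm4, an inhibitor of p53, was at 240 and 194 CPM in Brg1-cKO cells and at 155 and 165 CPM in control cells, and Zmat3, a p53 target, at 39.7 and 91.9 CPM in Brg1-cKO cells and at 28.5 and 32.1 CPM in control cells. The classical target Cdkn1a was at 0.349 and 4.67 CPM in Brg1-cKO cells and at 8.41 and 8.27 CPM in control cells, a value picked after it was seen. The p53 genes whose groups did not overlap thus lay in both directions, 4 higher and 5 lower of 20, shares near the 17.5% and 34.5% of all tested genes and so no result about this list.

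Of 9 tested genes of the stress and FOXO list, which includes factors known to drive some BH3-only genes, 2 were above 0 and 7 below, with a median of -0.22. Foxo1 was at 32.4 and 22.3 CPM in Brg1-cKO cells and at 44.7 and 47.8 CPM in control cells (log2 fold change -0.76, SE 0.34, edgeR adjusted p = 0.370). Atf4, the stress-response factor, was at 364 and 324 CPM in Brg1-cKO cells and at 390 and 413 CPM in control cells, and E2f1 at 23.3 and 46.8 CPM in Brg1-cKO cells and at 46.9 and 49.1 CPM in control cells. None of these differences passed the adjusted threshold.

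**Figure D5:**
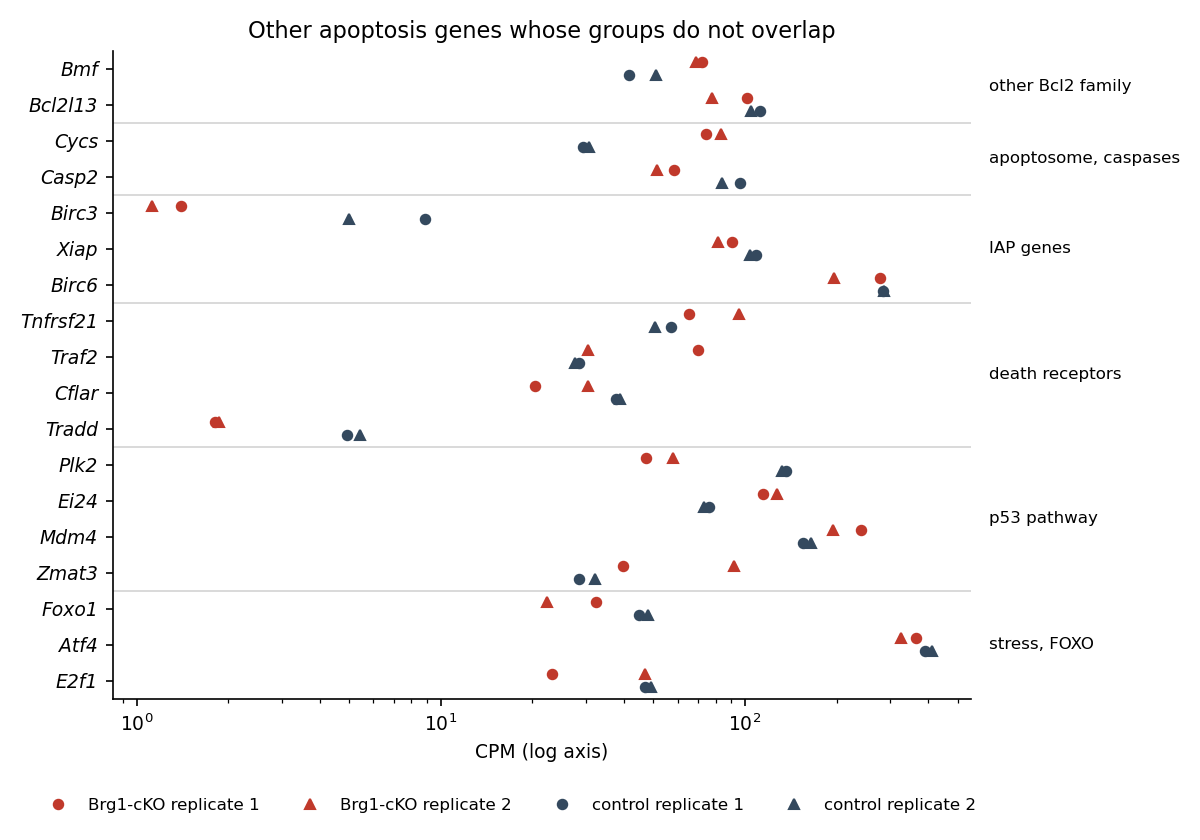
CPM on a log axis of the named genes of the other apoptosis lists, 4 libraries a gene, with Brg1-cKO above control in each row. Each gene has both Brg1-cKO libraries on the same side of both controls, as the naming rule asks, and Endog and Naip2, at 0 counts in Brg1-cKO, are left out.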

How the data were processed

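Whole-number counts of reads per gene were deposited for 2 Brg1-cKO and 2 control libraries. Per the labels' protocols, RNA from 3000 cells per sample went into strand-specific, randomly primed libraries read single-end. The submitters' processing notes name mm10, TopHat and DESeq2 and give no versions. How reads were counted, with which annotation and strand setting, is not stated. If strand was ignored, reads from exons shared with an antisense gene cannot be told apart from that gene's. The deposited counts hold a class of ambiguous reads, so such reads may have been left out of both genes.

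Of 52636 identifiers 52403 had a symbol. Reads given to no gene were left out (65.5% and 72.1% of reads in Brg1-cKO libraries, 32.4% and 31.8% in controls). A count of 0 allows up to 3 counts. The reads carry no molecular identifiers, so intervals and floors cover counting error only.

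The comparison was fitted on all genes with edgeR 4.0.16 in R 4.3.3 (TMM, filterByExpr with a minimum count of 10, robust quasi-likelihood F test, group as the only term, Benjamini-Hochberg adjustment at 0.05). Standard errors are the log2 fold change over the root of F, and CPM use TMM-scaled library sizes. Per-length values divide CPM by merged exons of GENCODE M21, on the same build. Exact Poisson intervals are at 95%. Alternatives were DESeq2 1.42.0, limma-voom (limma 3.58.1), the likelihood ratio test, other scalings and filters, a replicate block and each library left out. The last 2, limma-voom with a variance per group and edgeR without robust dispersions, were added after seeing the data. The functions were tested on simulated data.

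The members and lists were chosen with earlier results of these data known. The rule names all 10 members. Of each pathway list it names up to 4 genes that average at least 1 CPM, with the smallest unadjusted p among those whose groups do not overlap. A gene that this rule names is not reported here. For the member with the smallest p it names the 3 genes with the nearest profile. Promoter sequences are from RefSeq (GRCm38.p6).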

Additional observations from a re-analysis of the deposited data

Results flagged for a closer look

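The share of uniquely aligned reads that fell outside counted genes, which the comparison does not use, averaged 53.4% in the Brg1-cKO libraries (49.5% and 57.2%) and 15.9% in the controls (16.5% and 15.4%). It stands out because it lies in data outside the gene counts and above the level of both controls. Its part in the Bcl2 family values was not tested.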

How the results depend on the processing

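Of the 149 log2 fold changes of the 10 genes under alternatives, 128 kept their direction and side of the threshold, 11 kept their direction and newly passed it, and 10 changed direction. The members past the threshold stayed at 0 under each alternative that used all 4 libraries. Without 1 library they numbered 0 to 8, namely 7 without Brg1-cKO replicate 1 and 8 without replicate 2, where 12315 (55.5%) and 13262 (60.6%) of all tested genes passed, in fits where the lone library is assumed to vary like the controls. All genes past the threshold, 0 in the main test, numbered 2471 with the likelihood ratio test, 2038 with DESeq2, 327 with limma-voom, 134 with limma-voom and group variances, and 16 to 13262 with a library left out. With the replicate block 156 genes (0.858%) and 0 members passed. Deviations of same-numbered libraries correlated at r = -0.02 across genes. With 2 libraries a group and a far wider spread in Brg1-cKO, this cannot settle whether the numbers pair the samples.

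Changes of direction were, in log2, Bid -0.43 with limma-voom, -0.42 with group variances and -0.26 with the replicate block, and Bak1 -0.039 with the replicate block. With a library left out the values ran from -1.53 to 0.95 for Bid, -0.70 to 0.56 for Bak1, -0.14 to 0.70 for Bcl2l11, -0.55 to 0.19 for Mcl1 and -0.69 to 1.45 for Bad, in each case with the 2 ends from the 2 fits that kept a lone Brg1-cKO library, and Bak1 was also at -0.038 without control replicate 1. The cause was not tested. Bcl2 and Bcl2l1 stayed below 0 and Bax and Bbc3 above 0 under each alternative run. The groups of these genes did not overlap under any scaling tried, so leaving out a library was bound to keep their direction. Their stability there adds nothing to the positions of the libraries. Pmaip1, whose groups overlapped in the main scaling, stayed above 0 wherever it was tested. Its values included 0.014 without Brg1-cKO replicate 2 and 0.40 without Brg1-cKO replicate 1. With RLE scaling Pmaip1 also had both Brg1-cKO libraries above both controls. The summed level of each role, Brg1-cKO over control, moved by less than its spread under other scalings (0.903 for survival genes, 1.25 for pore formers and 1.45 for BH3-only genes in the main one). Counts as low as the 51 of Bid in Brg1-cKO replicate 1 limit that value.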

Other observations

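Bcl2l14 and Bik, other genes of the Bcl2 family, had counts in only 1 of the Brg1-cKO libraries. Bcl2l14 was at 0 and 46.6 CPM in Brg1-cKO cells and at 0.838 and 0.830 CPM in control cells, and Bik, which encodes a BH3-only protein, at 0 and 22.8 CPM in Brg1-cKO cells and at 1.87 and 0.934 CPM in control cells. Both were high in replicate 2, the library in which Bid and Bad were also high. They were picked after their values were seen. Of the 11594 tested genes at 10 CPM or more in at least 1 Brg1-cKO library, 610 (5.26%) were at 0 counts in the other, against 0 of 10242 between the controls. Hrk, another BH3-only gene, had 0 counts in Brg1-cKO cells and 1.06 and 0.882 CPM in control cells.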
